A study of Mus musculus with 14 samples.

Results

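The replication-dependent histone genes are 67 of the 21938 protein-coding genes on the nuclear chromosomes of the mouse annotation used here (GENCODE vM21, build GRCm38, also called mm10). They were selected on their symbols, which run from Hist1 to Hist4 followed by the histone class (H1, H2A, H2B, H3 or H4), and they were singled out as a group because of how peak coverage of their promoters moved between postnatal ages, so the coverage values by age are descriptions and carry no test. The data are H3K27me3 ChIP-seq peak lists, which mark where DNA bound to histone H3 trimethylated on lysine 27 was enriched, from cerebellum of C57BL/6NCrl mice at postnatal day 7 (P7), 14 (P14) and 60 (P60), with 3 libraries at each age and 9 in all. According to the study's methods the P7 and P14 replicates pool more than one animal and each P60 replicate is one animal. A further 5 lists, from 2 Kdm6b-WT and 3 Kdm6b-cKO cerebella (Kdm6b, which encodes an H3K27 demethylase, deleted by a Cre driven from Atoh1, a gene of granule neuron progenitors), were not analysed here because their coordinates run past the end of chromosome 13 of GRCm38.

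Replication-dependent histone genes supply the bulk of the histones that wrap newly copied DNA. They are transcribed mainly in S phase, have no introns in their coding sequence, and end their mRNAs in a stem-loop in place of a poly(A) tail. H2A, H2B, H3 and H4 form the nucleosome core and H1 binds the linker DNA. H3K27me3 is laid down by Polycomb repressive complex 2 and is typical of promoters that are held silent. In the cerebellum, granule neuron progenitors divide in the first postnatal weeks and are postmitotic neurons in the adult.

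The members lie in 4 clusters. Hist1, on chromosome 13 from 21715763 to 23934851, holds 54 genes (6 H1, 13 H2A, 15 H2B, 9 H3 and 11 H4). Hist2, on chromosome 3 from 96219865 to 96270132, holds 10 (4 H2A, 2 H2B, 3 H3 and 1 H4). Hist3, on chromosome 11, holds Hist3h2a and Hist3h2ba, and Hist4, on chromosome 6, holds Hist4h4 alone. All 67 coding sequences read from the reference opened with ATG and closed with a stop codon, and 65 of 67 had a paired 6-base stem around a 4-base loop within 150 bases of the stop codon. That hairpin is the defining feature of the class. Its most frequent form, found after 41 members, is shown here because it checks the label, with the stem in capitals:

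most frequent stem-loop, 5′ to 3′: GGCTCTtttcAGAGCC

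The exceptions were Hist1h2an and Hist2h2be. Newer RefSeq symbols exist for these genes (Hist1h2af is H2ac10, for example), but the symbols of the annotation are used throughout.

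The stretches below show where P60 peaks sat in Hist1h2ai and Hist1h3i, beside the same bases of other genes. A coding sequence is called under a peak when any of its bases is covered, inside or outside the printed stretch. The first is the part of the Hist1h2ai coding sequence (coding bases 95 to 184) that lay under a peak in all 3 P60 libraries, followed by the same 90 coding bases of other H2A genes. Capitals mark bases that differ from Hist1h2ai. All sequences are from the GRCm38 reference, 5′ to 3′ on the coding strand.

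Hist1h2ai (plus strand, chr13:21716516-21716605): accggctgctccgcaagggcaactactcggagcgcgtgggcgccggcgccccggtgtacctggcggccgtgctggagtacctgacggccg
Hist1h2af (plus strand, chr13:23534005-23534094): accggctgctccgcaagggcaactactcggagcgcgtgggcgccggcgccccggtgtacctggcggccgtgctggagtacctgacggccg
Hist1h2ao (plus strand, chr13:21810561-21810650): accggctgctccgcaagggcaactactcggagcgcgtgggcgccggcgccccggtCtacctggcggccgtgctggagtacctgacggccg
Hist2h2ac (minus strand, chr3:96220661-96220750): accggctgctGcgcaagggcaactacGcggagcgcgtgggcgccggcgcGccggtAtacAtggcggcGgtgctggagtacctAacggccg

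Hist1h2af, whose 90 bases were identical to those of Hist1h2ai, was also under a peak in all 3 P60 libraries. Hist1h2ao differed at 1 base and Hist2h2ac at 7, and neither coding sequence was under a peak in any library. In all, 5 of the 18 H2A genes carried the identical 90 bases (Hist1h2ai, Hist1h2an, Hist1h2ah, Hist1h2af and Hist1h2ad), and all 5 coding sequences were under peaks in all 3 P60 libraries. A further 5 H2A genes with other bases there were under a peak in at least 1 P60 library, among them Hist1h2ag in all 3.

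The second set is the stretch of Hist1h3i (coding bases 38 to 151) under peaks in all 3 P60 libraries, with the same 114 bases of other H3 genes and capitals where they differ from Hist1h3i.

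Hist1h3i (minus strand, chr13:21783220-21783333): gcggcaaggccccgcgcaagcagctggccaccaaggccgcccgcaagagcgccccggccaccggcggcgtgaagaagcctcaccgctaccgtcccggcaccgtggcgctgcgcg
Hist1h3b (plus strand, chr13:23752417-23752530): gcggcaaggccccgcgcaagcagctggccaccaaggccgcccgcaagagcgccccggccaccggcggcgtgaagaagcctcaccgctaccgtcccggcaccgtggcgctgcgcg
Hist1h3a (minus strand, chr13:23762203-23762316): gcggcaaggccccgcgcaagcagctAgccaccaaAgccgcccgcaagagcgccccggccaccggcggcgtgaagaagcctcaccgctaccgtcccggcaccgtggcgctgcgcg
Hist2h3b (plus strand, chr3:96268731-96268844): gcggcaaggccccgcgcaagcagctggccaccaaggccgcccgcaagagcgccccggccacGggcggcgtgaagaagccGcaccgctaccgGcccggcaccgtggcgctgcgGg

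These 114 bases were identical in 4 of the 12 H3 genes, Hist1h3h, Hist1h3i, Hist1h3d and Hist1h3b. In Hist1h3d, however, the bases under peaks in all 3 P60 libraries were coding bases 250 to 399, outside this stretch. A further 5 H3 genes with other bases there were also under a peak in at least 1 P60 library. Among them, Hist1h3a, which differed at 2 bases, Hist1h3e, Hist1h3f and Hist1h3g had coding sequences under peaks in all 3. Hist2h3b differed at 4 bases and its coding sequence was under none. The same comparison was made in H2B, where 5 genes with other bases than Hist1h2bn were under a peak in at least 1 P60 library, among them Hist1h2bj in all 3. Of the 5 H2B genes that carry the 51 bases of Hist1h2bn under peaks in all 3 P60 libraries (coding bases 301 to 351), only Hist1h2bn itself was under coding peaks in all 3, Hist1h2bk, Hist1h2bh and Hist1h2bf were in fewer, and Hist1h2bg was in none.

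Promoter coverage was measured as the percent of a 6001 bp window (3 kb on each side of the transcription start site) that lay under peaks, taking the most covered window where a gene had several start sites, and a promoter with at least 1 bp covered counted as marked. By this measure no histone gene was marked at P7 and most were at P60, while the marked share of all genes fell. The number of members marked was 0, 0 and 0 in the 3 P7 libraries, 0, 16 and 6 in the P14 libraries, and 39, 41 and 41 in the P60 libraries. The P7 and P60 counts did not overlap, and the P14 libraries ranged from none to 16.

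Over all protein-coding genes the marked number was 5212, 4044 and 3506 at P7, 2654, 3625 and 3834 at P14, and 1931, 1546 and 2432 at P60. The marked number thus fell over all genes while it rose in the histone genes. The histone genes were singled out on this contrast, so nothing is read from the difference in direction. Mean promoter coverage of the members was 0% at P7, 0.755% ± 0.654 (SD, n = 3) at P14 and 3.84% ± 1.28 (SD, n = 3) at P60. In bulk tissue a change in the share of cells that carry the mark and a change of the mark within a cell cannot be told apart. The values also depended on peaks in repeated sequence. With only peaks whose central bases occur once in the genome, 5, 3 and 14 members were marked in the P60 libraries. At P7 the number stayed at 0. Then 0 members had all P60 values above all P7 values, in place of 35. Over all genes 11.6% still had all P60 values below all P7 values. The part of repeated sequence in the P60 values was not tested.

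**Figure D1:**
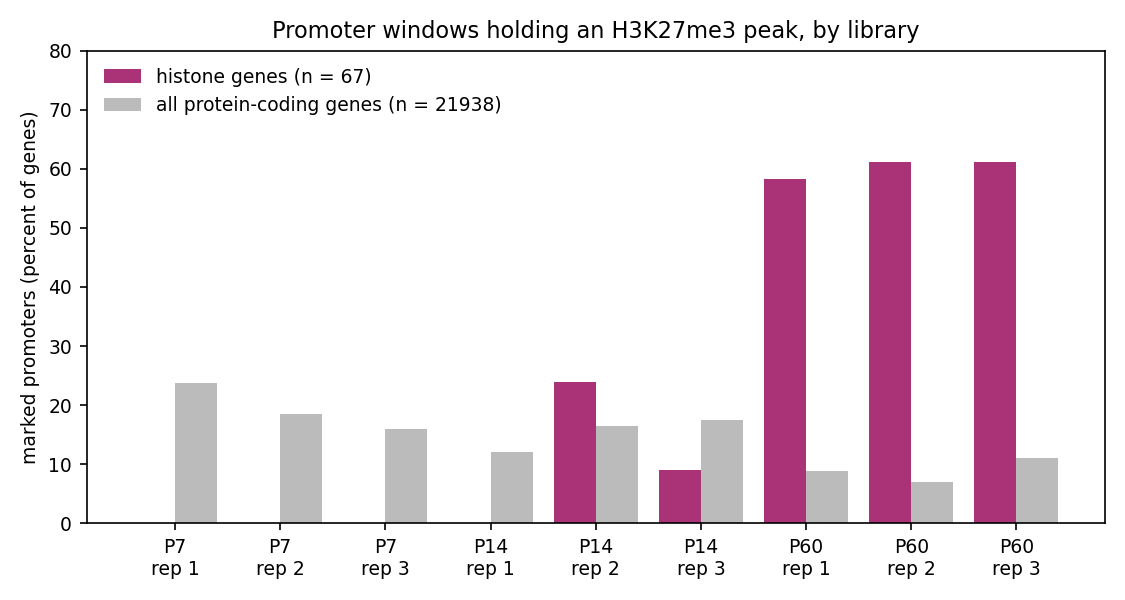
Percent of promoters marked by H3K27me3 in each of the 9 libraries (vertical axis, percent of genes), for the 67 histone genes (purple bars) and for all 21938 protein-coding genes (grey bars). The histone genes are at 0 in all P7 libraries and between 58.2% and 61.2% in the P60 libraries, while all genes go from 23.8%, 18.4% and 15.98% at P7 to 8.80%, 7.05% and 11.1% at P60.

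Member by member, 35 of 67 had all 3 P60 values above all 3 P7 values, and 0 had all P60 values below, which could not occur with P7 at 0. Over all genes, 0.333% lay wholly above and 12.1% wholly below from P7 to P60. The rule that chose the genes used this contrast, so nothing is read from the difference. From P14 to P60, 27 members lay wholly above (0.196% of all genes) and 0 wholly below (5.99% of all genes). From P7 to P14, 0 members lay wholly above or wholly below, beside 0.451% and 6.34% of all genes. The counts of 0 in these comparisons were fixed too, because no member was marked in any P7 library or in P14 replicate 1. Nothing is read from them. Of all 21938 genes, 68 were unmarked in every P7 library and marked in every P60 library, and 35 of these (51.5%) were histone genes. Nothing is read from this share either, because it comes from the same contrast.

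The libraries were not alike. Median peak width was 751, 485 and 622 bp at P7, 269, 454 and 580 bp at P14, and 134, 149 and 410 bp at P60, so P60 replicates 1 and 2 held mostly short peaks. The 50 bases at the centre of a peak occurred elsewhere in the genome for 72.9% and 59.3% of all peaks in P60 replicates 1 and 2, for 29.2% in P60 replicate 3, and for between 17.0% and 43.1% in the P7 and P14 libraries. With P60 replicate 3 as the only P60 library, 41 members lay wholly above P7 and the mean difference was 5.32 percentage points. Read depth is unknown, because the lists hold no counts. Among lists of cell type markers, the number of promoters wholly lower at P60 than at P7 was 4 of 7 for granule neuron progenitors, 3 of 9 for granule neurons, 1 of 5 for Purkinje cells, 1 of 5 for astrocytes and Bergmann glia, 3 of 5 for the oligodendrocyte lineage, 0 of 5 for microglia, 4 of 5 for inhibitory interneurons, 2 of 5 for endothelial and mural cells and 3 of 5 for genes of tissues other than brain. Only 1 marker, Mycn of the granule neuron progenitors, lay wholly higher at P60 than at P7. Over all genes 12.1% lay wholly lower and 0.333% wholly higher. These lists do not check the tissue, since peaks do not measure expression.

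The 43 members marked in at least 1 P60 library were not 43 separate events. The histone genes are packed so closely that the 73 start-site windows of the members merged into 23 stretches of 226 kb in all. The peaks in them merged over the libraries into 29 regions, 26 of which lay in the windows of more than 1 member. All 3 P60 libraries held a peak in 18 of the 29 regions and no P7 library did. P60 replicates 1, 2 and 3 had 25, 30 and 23 peaks at the members. These were short, from 51 to 602 bp, 57 to 338 bp and 133 to 1041 bp. The median fold of these peaks over the local background was 4.46, 4.47 and 4.33, against 3.86, 4.07 and 3.50 over all peaks of the same libraries. The median −log10 q of the peaks at the members was 2.55, 2.29 and 3.02. The median percentile of these peaks among the −log10 q values of the same library was 68.1, 62.9 and 77.8.

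Most of the peaks overlapped coding sequences, which in these short genes begin close to the start site. Of the 29 regions, 26 overlapped the coding sequence of a member. Of the bases covered at P60 within the merged windows, 34.7% lay in H3, 17.4% in H2A and 14.5% in H2B coding sequences, none in H1 or H4 coding sequences, and 33.3% outside. Hist1 held 96.1% of the covered bases. Taking each gene's own coding sequence in place of its window, 28 members were touched by a peak in at least 1 P60 library, 24 in at least 2 and 16 in all 3, and all 28 were in Hist1. At P60 the mean share of the coding sequence under peaks over all members was 14.2%, 15.0% and 18.3% by replicate.

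**Figure D2:**
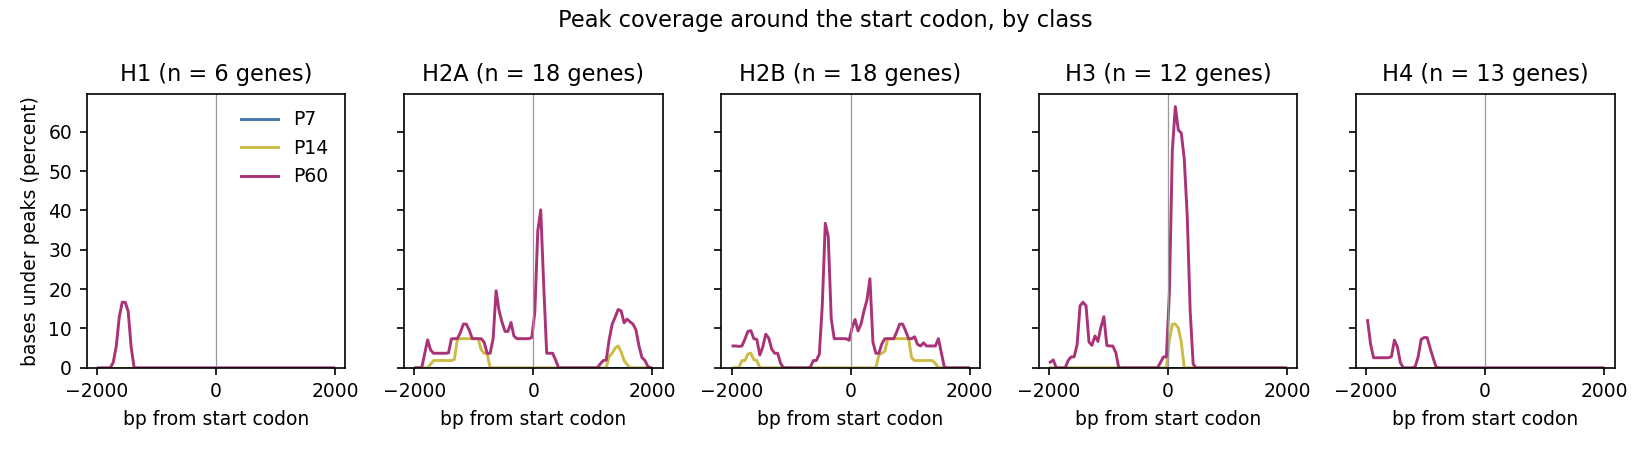
Percent of bases under peaks (vertical axis) in 50 bp bins from 2000 bp before to 2000 bp after the start codon (horizontal axis, direction of transcription), averaged over the genes of each class and the 3 libraries of each age. The P60 line of H3 reaches 66.4% between 100 and 150 bp after the start codon and that of H2A 40.1% in the same bin, H1 and H4 are at 0 over the first 300 bp, and the P7 lines stay at 0 throughout.

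By coding coverage, H3 genes were the most completely covered class. By promoter window they were not: the class means at P60 were 4.43% for H3, 4.52% for H2A and 4.57% for H2B. All 9 Hist1 H3 coding sequences were under a peak in at least 2 P60 libraries and 8 of them in all 3. Their mean coding coverage was 48.1%, 64.0% and 66.8% in P60 replicates 1, 2 and 3 (59.6% ± 10.1, SD, n = 3). Hist1h3b had 63.0%, 77.1% and 89.8% of its coding sequence under peaks at P60. Hist1h3d had 85.6%, 36.5% and 90.3%, and Hist1h3h had 52.3%, 77.9% and 61.3%. The H3 gene missed in 1 library was Hist1h3c, with 0%, 68.4% and 34.1%. The 3 H3 genes of Hist2 (Hist2h3b, Hist2h3c1 and Hist2h3c2) had no peak on their coding sequence in any library.

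H3 was also the class in which P14 coding peaks were seen. P14 replicate 2 had a peak on Hist1h3h (47.9% of the coding sequence), Hist1h3i (43.6%), Hist1h3d (50.9%) and Hist1h3b (58.9%), with folds between 3.88 and 3.99. P14 replicates 1 and 3 had none there, so the 3 P14 libraries did not agree. These are the same 4 genes that share the identical 114-base stretch printed above.

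Of the H2A genes, 10 of 18 had a coding sequence under a peak in at least 1 P60 library and 6 in all 3, all in Hist1. Hist1h2af had 36.1%, 39.2% and 50.4% of its coding sequence under peaks at P60, with no overlap with the P7 and P14 libraries, which were all at 0. Its P60 replicate 3 peak (chr13:23533903-23534108) was the strongest at any member, with a fold of 8.04 and a −log10 q of 11.3, higher than 96.3% of the peaks of that library. Hist1h2ah had 26.4%, 29.2% and 42.9%. Hist1h2ai ranged more widely, at 76.1%, 22.9% and 35.1%. The mean over the 13 Hist1 H2A genes was 20.1%, 18.6% and 26.4%.

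Of the H2B genes, 9 of 18 were touched in at least 1 P60 library but only Hist1h2bn and Hist1h2bj in all 3. Hist1h2bn had 13.4%, 23.6% and 34.9% of its coding sequence under peaks, and its P60 replicate 2 peak had a fold of 7.33 and a −log10 q of 7.60. Hist1h2bj had 83.2%, 15.0% and 90.8%. Hist1h2bk had 85.0%, 88.7% and 0%, and Hist1h2bc 13.6%, 0% and 85.6%, so in these genes 1 library lacked what the others showed. The mean over the 15 Hist1 H2B genes was 17.1%, 12.2% and 19.0%.

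No H4 coding sequence (0 of 13) and no H1 coding sequence (0 of 6) was under a peak in any library. Yet 5 H4 and 2 H1 promoters counted as marked in all 3 P60 libraries, each through peaks at or beside neighbouring genes within 3 kb. Hist1h4a and Hist1h1a, for example, had window coverage of 2.52%, 4.33% and 4.07%, the same values as Hist1h3a between them, whose coding sequence held the peak. Hist1h1b, at 1.90%, 5.28% and 2.60%, likewise had the same values as Hist1h3i.

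**Figure D3:**
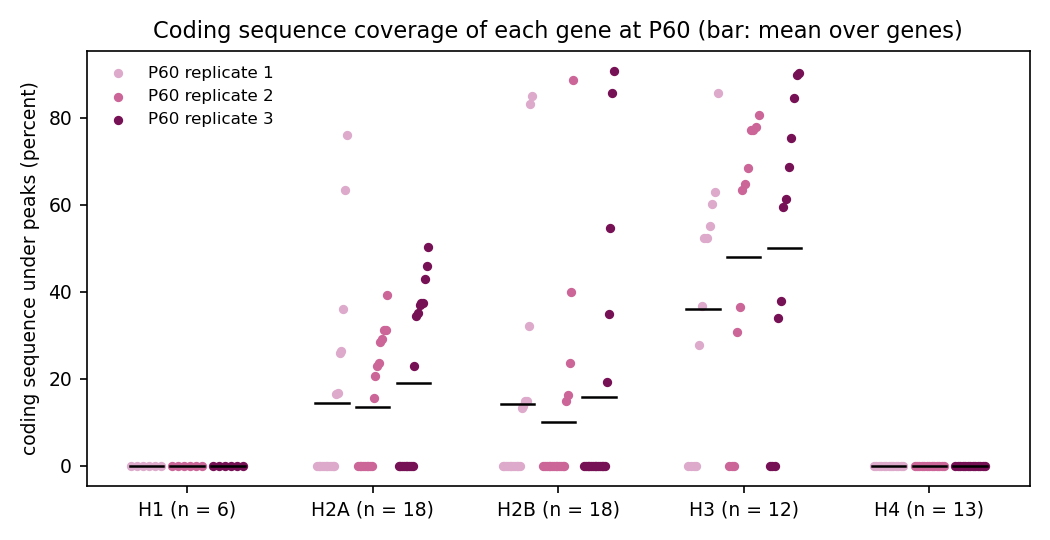
Percent of the coding sequence under peaks (vertical axis) for every member at P60, one point per gene, grouped by histone class and by library (shades), with a black bar at the mean over the genes of the class. H3 genes sit highest, with means of 36.1%, 48.0% and 50.1% over all 12, H2A and H2B are split between genes at 0 and genes above it, and all H1 and H4 points are at 0.

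The most covered promoter windows belonged to a pair of duplicated trios in the first block of Hist1: Hist1h2bq with Hist1h2ao and Hist1h4m, and Hist1h2br with Hist1h2ap and Hist1h4n. These 6 genes had the highest mean coverage over the 9 libraries of any members, from 5.17% to 6.33%. Hist1h2bq and Hist1h2ao each had window coverage of 0%, 6.93% and 16.2% at P14 and 10.0%, 6.47% and 17.3% at P60. Hist1h2br and Hist1h2ap each had 0%, 6.93% and 9.08% at P14 and 10.0%, 6.40% and 17.1% at P60. The P14 and P60 ranges overlapped in both trios, and P7 was at 0.

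The peaks lay at the 3′ side of the H2B gene of each trio and mirrored each other. P60 replicate 1 had a 602 bp peak at Hist1h2bq (chr13:21809246-21809847, fold 3.50) and a 602 bp peak at Hist1h2br (chr13:21834095-21834696, fold 3.37). P14 replicate 2 had 416 bp peaks at both, with folds of 3.50 and 3.32. Every 50-base word in both regions occurred more than once in the genome, on average 2.04 times, so reads from one copy cannot be told from reads from the other.

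Among the other members marked in several P60 libraries, Hist1h2bf had window coverage of 6.95%, 5.58% and 18.3% and 3.48% in P14 replicate 2. The 2 least covered members above 0 were Hist1h2bm, with 1.57%, 1.50% and 2.30% at P60, and Hist1h4h, with 1.88%, 1.82% and 2.47%. Neither had a peak on its own coding sequence. The peak in the window of Hist1h2bm lay at chr13:21721631-21721768 outside every member, in all 3 P60 libraries, and all of its 50-base words were repeated.

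**Figure D4:**
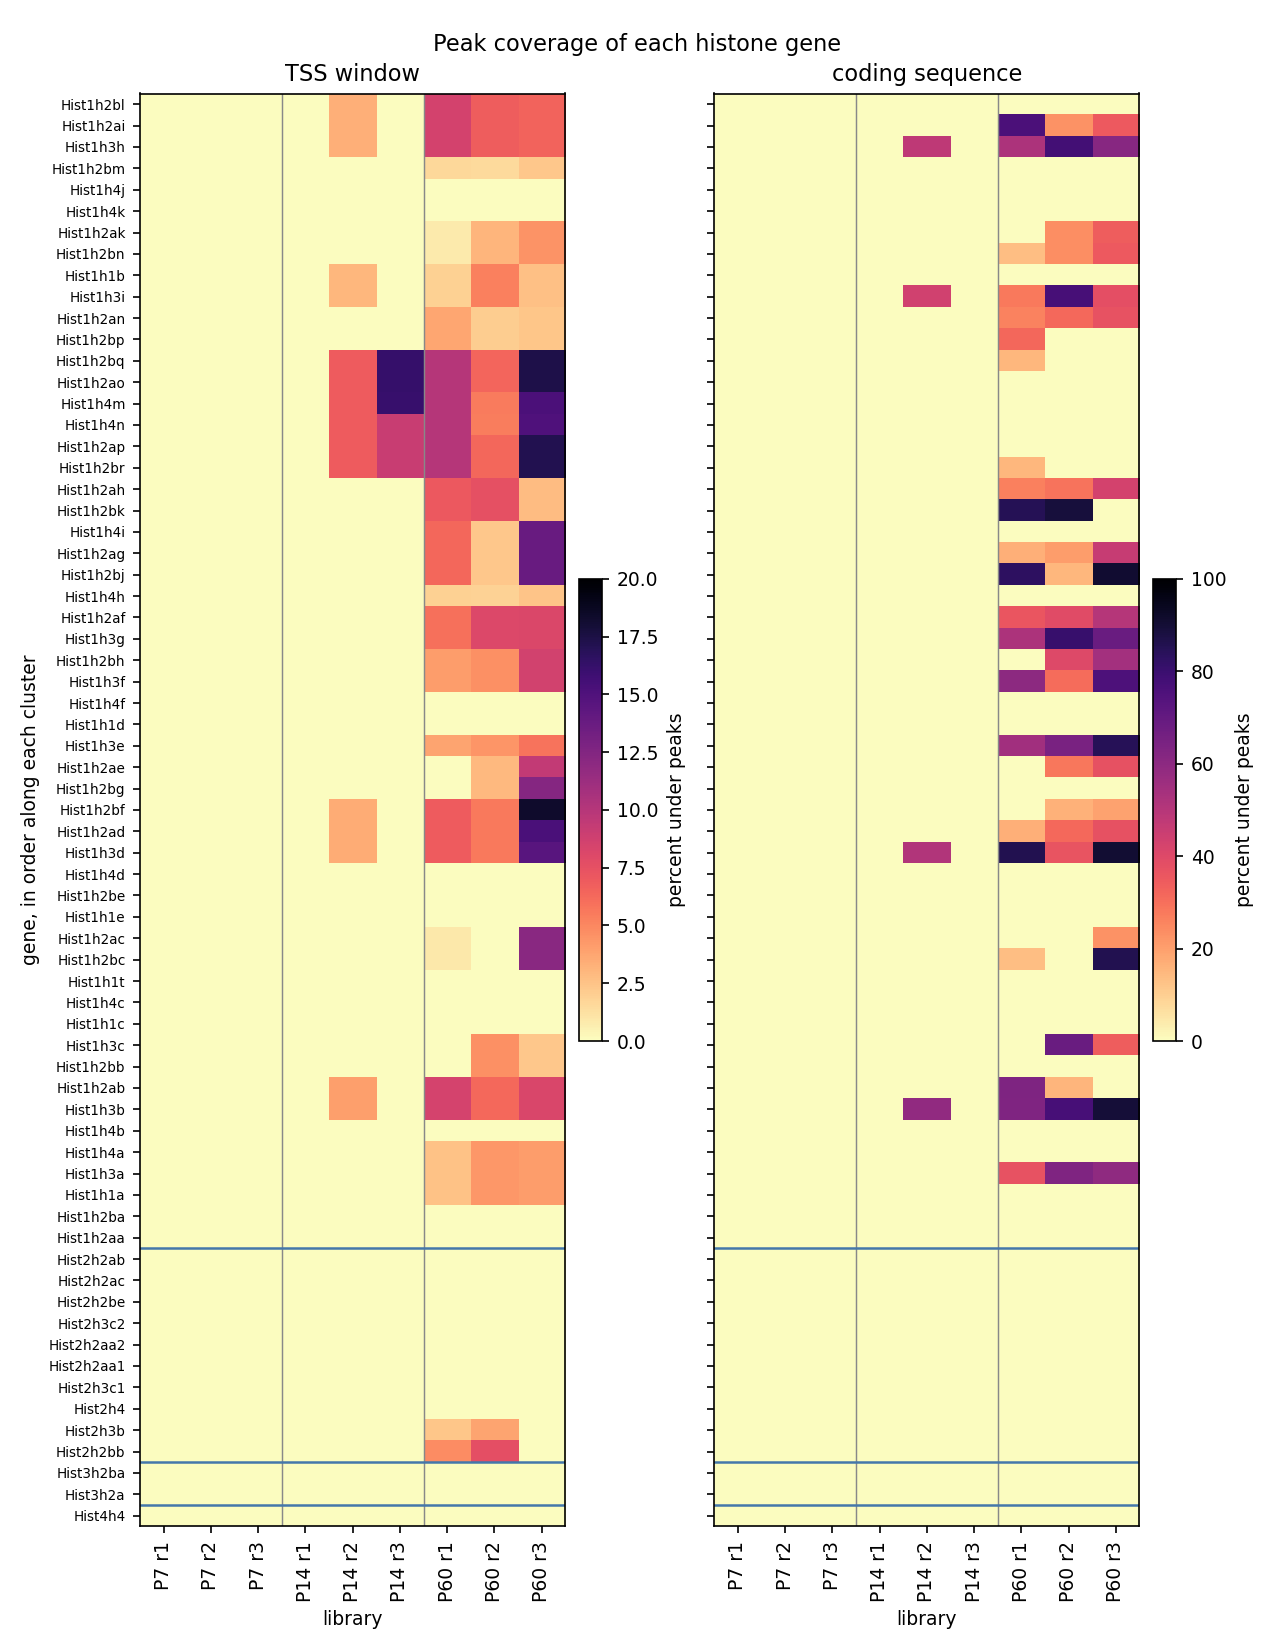
Percent under peaks (colour) of the start-site window (left, scale to 20%) and of the coding sequence (right, scale to 100%) for each of the 67 members (rows, in order along each cluster, with blue lines between clusters) in the 9 libraries (columns). Colour is confined to Hist1 and 2 Hist2 windows, P7 columns are empty, and neighbouring genes share window values while the coding sequences separate H2A, H2B and H3 genes from H1 and H4 genes.

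Marked promoters were unevenly spread along the clusters. Hist1 falls into 4 blocks separated by gaps of more than 100 kb. In the first (Hist1h2bl to Hist1h2br, 18 genes) 16 promoters were marked in all 3 P60 libraries, in the second (Hist1h2ah to Hist1h2bj, 5 genes) all 5, in the third (Hist1h4h to Hist1h1a, 29 genes) 14, and in the fourth, which holds Hist1h2ba and Hist1h2aa, none. Outside Hist1, Hist2h2bb and Hist2h3b were marked, and in P60 replicates 1 and 2 only, at 4.80%, 7.60% and 0% and at 2.40%, 3.80% and 0%. Those peaks lay beyond the 3′ end of Hist2h2bb in a stretch present as a pair of copies, with the same width and fold at both copies (144 bp and 3.83 in P60 replicate 1) and 50-base words found up to 1004 times in the genome.

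The 24 members with no coverage in any of the 9 libraries were, in Hist1, the H1 genes Hist1h1c, Hist1h1d, Hist1h1e and Hist1h1t, the H2A gene Hist1h2aa, the H2B genes Hist1h2ba and Hist1h2be, and the H4 genes Hist1h4b, Hist1h4c, Hist1h4d, Hist1h4f, Hist1h4j and Hist1h4k. In Hist2 they were Hist2h2aa1, Hist2h2aa2, Hist2h2ab, Hist2h2ac, Hist2h2be, Hist2h3c1, Hist2h3c2 and Hist2h4, and outside these clusters Hist3h2a, Hist3h2ba and Hist4h4. Hist1h1t, Hist1h2aa and Hist1h2ba are known as testis histones. The nearest of the 3 annotated start sites of Hist1h2be lies 35122 bp from its coding sequence, so its windows miss that sequence, which was not under a peak either.

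Promoter sequences were touched by peaks in 1 of the 3 P60 libraries. RefSeq promoter sequences (250 bases before to 50 after the gene start, GRCm38.p6) matched 61 of the 67 members. None of the 61 was touched by a peak in P60 replicates 1 and 2, and 14 were in P60 replicate 3, 7 of them over at least 80% of their length. Those 7 were Hist1h2ag and Hist1h2bj, Hist1h2ae and Hist1h2bg, Hist1h2bf and Hist1h2ad, and Hist1h2ac, and all but the last make up divergent H2A and H2B pairs that share the DNA between them. The promoter of Hist1h2bj, which lay wholly under a peak in P60 replicate 3 and under none in replicates 1 and 2, is shown because it is the clearest case of this difference between libraries, with CCAAT and TATAA on either strand in capitals:

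Hist1h2bj promoter (plus strand, chr13:22042948-22043247): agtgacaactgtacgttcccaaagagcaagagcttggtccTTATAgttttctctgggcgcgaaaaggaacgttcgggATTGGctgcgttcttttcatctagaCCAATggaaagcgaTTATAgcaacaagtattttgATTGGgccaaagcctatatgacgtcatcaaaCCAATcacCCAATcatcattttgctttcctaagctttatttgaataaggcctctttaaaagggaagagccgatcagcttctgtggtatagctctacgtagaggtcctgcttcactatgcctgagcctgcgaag

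CCAAT, searched on both strands, occurred in 52 of the 61 member promoters (85.2%) and in 37.4% of 32851 RefSeq promoters of the same length. It was in all 6 H1, 17 H2A, 16 H2B and 10 H3 promoters that matched and in 3 of 12 H4 promoters. TATAA, likewise on both strands, occurred in 49 of 61 (80.3%) and in 24.9% of all promoters.

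The coding sequences under peaks are shared sequence. The reads were 50 bases long, and the median share of 50-base words of a member's coding sequence that occur elsewhere in the genome was 10.9% for H1, 83.9% for H2A, 79.8% for H2B, 84.7% for H3 and 70.3% for H4. It was 81.9% over the 28 genes with a coding peak at P60 and 55.7% over the 39 without. None of the 29 regions was free of repeated words, 13 consisted of them alone, and 4 were over 50% single-copy words, such as the Hist1h2ae region (86.3%) and the region across Hist1h2bf and Hist1h2ad (71.4%). The 11 H4 genes of Hist1 had a median of 71.5% repeated words, and the 3 H3 genes of Hist2 a median of 100%, and no gene of either group had a coding peak. These groups are not matched in copy number. Their words occurred 5.06 and 4.34 times on average, against 5.79 for Hist1 H3 genes and 7.90 over the 28 genes with a coding peak. How copy number bears on the peaks was not tested. The coding sequences are also rich in G and C, with a median of 65.1% over all members, 66.9% for H3 and 65.1% for H4, and dense in CpG, at 107 per kb against 8.26 per kb in the genome.

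At the members, the central 50 bases were repeated for 23 of 25, 29 of 30 and 17 of 23 peaks in P60 replicates 1, 2 and 3, and for all 6 and 2 peaks in P14 replicates 2 and 3. When only peaks with a single-copy centre were kept, a choice made after seeing these data, the number of members marked was 5, 3 and 14 in the P60 libraries and 0 in every P7 and P14 library, and 0 members remained wholly above P7 in place of 35. Hist1h2af, for example, kept 3.58%, 0% and 4.70% of its window, the same values as Hist1h3g. What was kept were the peaks on the Hist1h3g coding sequence. The peaks on the coding sequence of Hist1h2af itself all had a repeated centre and were dropped. Over all genes the same restriction left 11.6% wholly below and 0.128% wholly above. Of the other 33 genes unmarked in all P7 and marked in all P60 libraries, 24 stayed so. The sources used here do not say how reads that fit several places were assigned, and its part in the P60 values was not tested.

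**Figure D5:**
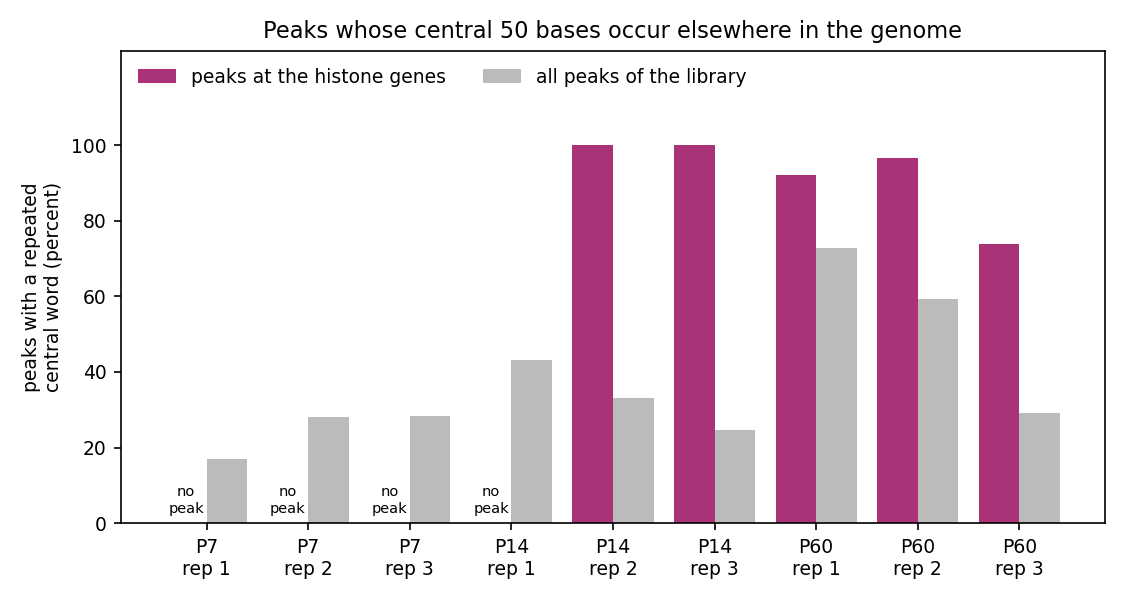
Percent of peaks (vertical axis) whose central 50 bases occur more than once in the genome, for the peaks at the histone genes (purple) and for all peaks of the same library (grey), by library. The member peaks are at 92.0%, 96.7% and 73.9% in the P60 libraries, above the 72.9%, 59.3% and 29.2% of all peaks, and 4 libraries have no peak at a member.

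None of the genes listed here as related to the members by function or position lay wholly above P7 at P60. Over all genes only 0.333% did, so a count of 0 in lists this short is near that share and nothing is read from it. Of all 21938 genes, 5606 were marked in at least 1 P7 library and 3342 in at least 1 P60 library. In all 3 P60 libraries 827 were marked, and 12.1% lay wholly below P7 at P60. Of 16 replication-independent histone genes, such as H3f3a and H2afz, which supply histones outside S phase, 0 were marked at P7 and 1 at P60. Of 22 factors of histone mRNA transcription and 3′ processing, 1 was marked at P7 and P60, Sympk, with 40.8%, 39.6% and 26.6% at P7 and 7.22%, 1.83% and 24.2% at P60. Of 20 S-phase genes, 2 (Rrm2, of nucleotide reduction, and Mki67, a proliferation marker) were marked in all 3 P60 libraries, and 0 lay wholly above P7. Of 48 other protein-coding genes between the ends of Hist1, counting each symbol once, 6 were marked in at least 1 P60 library, 0 in all 3, and 2 lay wholly below P7. Those 2 were Pom121l2, at 27.4%, 20.03% and 30.8% at P7, and Prss16, at 43.2%, 6.73% and 15.7%, and both were at 0 in all P60 libraries. Over the 67 members the median difference from P7 to P60 was 3.26 percentage points and over all genes it was 0.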

How the data were processed

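H3K27me3 ChIP-seq libraries (50 bp single-end reads) from cerebellum were processed by the authors with Trimmomatic 0.38, STAR 2.7.2b and MACS2 2.1 on mm10, per the labels' processing notes, which give these names without roles. One broad peak list per library was deposited, with a score, a fold enrichment ratio over local background and −log10 p and −log10 q values. The false discovery rate threshold that the paper states for ChIP-seq peaks corresponds to a −log10 q of 2. The lists also held weaker peaks, down to a −log10 q of about 1.0, and all deposited peaks were used for the main values. The lists hold no counts, so depth is unknown. The 9 lists of P7, P14 and P60 stay within GRCm38. The 5 knockout lists do not and were not analysed here, so the planned limma comparison was not run.

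Members and lists were chosen with earlier results of these data known. Coverage was computed in Python 3.11.15 with NumPy 2.4.6 over GENCODE vM21 start sites. All 50-base words of the regions were counted on both strands of 21 chromosomes, and both steps were tested on simulated data. No test was run. Values are given per library or as mean ± SD over 3 libraries. Named genes were the 6 most covered of each cluster, the largest and smallest changes, the lowest above 0, and all at 0. Further members were named after their values were seen, as examples of a class.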

Additional observations from a re-analysis of the deposited data

How the results depend on the processing

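With P7 at 0, the sign of the difference was fixed and only its size could vary. The mean P60 minus P7 difference of the members, 3.84 percentage points, was 2.17 with peaks of −log10 q of 2 or more, 0.53 with 4 or more, 6.29 with windows of 1 kb on each side, 5.32 without P60 replicates 1 and 2, and 0.80 with single-copy peaks. Divided by each library's mean over all genes it was 6.78 times that mean. The mean number of members marked per P60 library, 40.3, was 29.3 with −log10 q of 2 or more, 15.0 with 4 or more, 7 when at least 10% of the window was required, 7.33 with single-copy peaks and 22.7 over coding sequences. With −log10 q of 2 or more, the threshold that the paper states, the counts were 26, 28 and 34 in the P60 libraries. They were 0, 10 and 0 in the P14 libraries and 0 in each P7 library. The 35 members wholly above P7 became 21 with −log10 q of 2 or more, 8 with 4 or more, 16 over coding sequences and 0 with single-copy peaks. Leaving out 1 library at a time gave differences from 3.10 to 4.25, between 40 and 41 members marked, and 35 to 39 wholly above. Without P60 replicates 1 and 2, the share of covered bases in H3 coding sequences was 29.2% in place of 34.7%. The share outside coding sequences was 42.0% in place of 33.3%, and the share in Hist1 was 100% in place of 96.1%. These shifts cannot be set against the spread between P60 replicates, since replicate 3 enters both values and that spread. The single-copy and coding-sequence settings and the count above were added after seeing the data. The cause of these shifts was not tested, apart from the smaller set of peaks that the stricter settings leave. No paired analysis was possible because each age used different animals and the labels name nothing that same-numbered libraries share, the age-series values come from no test, and the knockout lists, whose alternatives were not run, are not in GRCm38 coordinates.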

Other observations

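Beside the histone genes, 33 protein-coding genes were unmarked in all 3 P7 libraries and marked in all 3 P60 libraries. Among them, Tk1, thymidine kinase of the DNA precursor pathway, had promoter coverage of 1.68%, 6.52% and 12.4% at P60, and E2f2, a cell cycle transcription factor, 4.12%, 3.58% and 6.83%. Afmid, also among the 33, had the same values as Tk1 in all 9 libraries. Mycn, a transcription factor of granule neuron progenitors, had 3.38%, 1.02% and 35.9%, and Hdac1, a histone deacetylase, 0.850%, 4.47% and 4.62%. In the P14 libraries Tk1 had 0%, 0% and 11.3%, E2f2 7.10%, 7.92% and 4.47%, and Mycn 4.63%, 26.5% and 18.4%, while Hdac1 was at 0. The P14 and P60 ranges of Tk1, E2f2 and Mycn overlapped. These 4 genes also met the same description when only peaks with a single-copy centre were kept. They were picked by eye from the 33, which also hold genes such as Col6a3, Arg1, Fmo4 and Mup18, and no test of the group was made. Of the fixed list of 20 S-phase genes, 0 met the description.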
